A study of Mus musculus with 20 samples.

Results

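The peptidylarginine deiminase (Padi) gene cluster of the mouse was followed through 11 promoter windows, of 54034 windows in the series. They are all the windows in the stretch of chromosome 4 that holds the Padi genes, with window starts from 140441354 to 140685514 on build GRCm39. Single blastocysts were assayed by bisulfite sequencing of their genomic DNA, which reads methylated cytosines. Of these, 10 were controls (replicates 1 to 10, genotype Control) and 10 were Padi6-mutant (replicates 11 to 20), which the series describes as embryos from oocytes carrying the Padi6 P620A allele. The mutant blastocysts had passed an earlier arrest to which part of such embryos succumb, so they are survivors. The labels give no strain, mother, litter, age, sex or paternal allele for an embryo, nor whether the egg of a control carried any other allele. Embryos were treated as separate replicates, so p-values measure the spread between embryos. Some may share a mother, and the p-values do not measure the spread between mothers. Where mothers are shared, they may be too small.

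PADI enzymes convert arginine residues of proteins to citrulline in the presence of calcium. The genes differ in where they are used: PADI1 and PADI3 act in the epidermis and hair follicle, PADI2 is widely expressed in brain, muscle and secretory tissues, and PADI4 is a nuclear enzyme of granulocytes that citrullinates histones. PADI6 is the member of the egg. It is made in the growing oocyte, forms part of the subcortical maternal complex and the cytoplasmic lattices, and is passed to the embryo, where it is needed for early cleavage. DNA methylation is largely erased after fertilisation and is near its lowest in the blastocyst, while promoters rich in CG dinucleotides are usually free of methylation throughout.

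Each window spans 3500 bp, beginning 3000 bp before a transcription start site and ending inside the gene, and so covers the promoter and the beginning of the gene. The windows carry no gene name. Names were tied by spacing: the starts of all 5 Padi genes in the RefSeq gene table (build GRCm38.p6) were laid over the window start sites of the same strand. Of 2849 spacings that put Padi6 on a window of chromosome 4, 1 placed all 5 genes within 100 bp of a window start site, and the deviations there were 0 to 8 bp. At that spacing 8 of the 11 windows met a gene start. They were Padi6 (gene ID 242726), Padi4 (18602), Padi3 (18601) and Padi1 (18599) on the minus strand, Padi2 (18600) on the plus strand, the noncoding RNA genes Gm13032 and 4930515B02Rik, and Sdhb, which encodes a subunit of succinate dehydrogenase and lies next to the cluster. The name Sdhb is the loosest of these, with a deviation of 68 bp. The remaining 3 windows met no gene start and are called unassigned 1, 2 and 3 in order of position.

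The promoters of the cluster differ in the number of sites that can be methylated in this way. The following RefSeq sequences (build GRCm38.p6) are the 250 bases before the start of Padi6, the gene that is mutated, of Padi3, whose window stood at 0% in every embryo, and of Padi2, the CG-rich promoter of the family. They are written 5′ to 3′ on the strand of the gene, with each CG dinucleotide in capitals.
Padi6, chr4:140742644-140742893, minus strand: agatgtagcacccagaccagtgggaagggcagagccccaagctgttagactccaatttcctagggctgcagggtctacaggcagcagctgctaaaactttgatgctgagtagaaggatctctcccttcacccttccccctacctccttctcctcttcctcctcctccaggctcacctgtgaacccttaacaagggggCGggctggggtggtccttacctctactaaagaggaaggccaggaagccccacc
Padi3, chr4:140810649-140810898, minus strand: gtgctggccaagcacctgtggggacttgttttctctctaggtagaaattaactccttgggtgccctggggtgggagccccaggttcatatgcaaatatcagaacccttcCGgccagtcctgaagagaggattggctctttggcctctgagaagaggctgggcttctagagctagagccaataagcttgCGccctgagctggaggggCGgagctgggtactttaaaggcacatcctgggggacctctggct
Padi2, chr4:140906110-140906359, plus strand: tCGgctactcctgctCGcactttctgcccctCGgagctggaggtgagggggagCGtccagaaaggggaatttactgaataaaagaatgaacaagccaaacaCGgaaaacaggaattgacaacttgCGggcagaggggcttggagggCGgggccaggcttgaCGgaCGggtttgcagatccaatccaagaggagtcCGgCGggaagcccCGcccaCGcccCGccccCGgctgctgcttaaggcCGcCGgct

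The Padi6 stretch held 1 CG, Padi4 and Padi3 held 3 each, Padi1 held 0 and Padi2 held 17, against a median of 6 over the 32851 promoters of the same length in the RefSeq table. Of these promoters 7.87% had fewer CGs than Padi6 and 76.5% had fewer than Padi2. Padi6 is thus a CG-poor promoter, as are Padi4, Padi3 and Padi1, and Padi2 is not. The E-box motif CANNTG, searched on both strands, occurred 2 times each in Padi6, Padi4 and Padi3 and 0 times in Padi1 and Padi2, and in 66.2% of all promoters. The GC box GGGCGG occurred 3 times in Padi2 and once each in Padi6 and Padi3, and in 32.7% of all promoters. The TATA box TATAAA was found in Padi4 alone of the 5, 31 to 26 bases before the start, and in 12.4% of all promoters. None of these matches overlapped another. The methylation levels below refer to whole windows, of which these stretches are a small part.

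The cluster was covered unevenly, and the mutant embryos less than the controls. Read depth is not given, so no binomial interval can be set on a level, and the number of windows with a value in an embryo served as the measure of coverage. There were 6 densely covered controls (37049 to 46950 windows), 4 sparsely covered controls (4984 to 17002), 3 densely covered mutants (replicates 11, 12 and 14, 38549 to 43812) and 7 sparsely covered mutants (2875 to 13847). In the cluster, densely covered controls had a value in 8 to 11 of the 11 windows and densely covered mutants in 9 or 10. Sparsely covered controls had 3 to 6 and sparsely covered mutants 1 to 6. This left 79 control values and 49 mutant values. The share of exact 0% values was 46.8% in control and 61.2% in mutant embryos in the cluster, against 44.9% and 54.5% over all windows. This share went with coverage. Over all windows it was 58.4% to 76.1% in single sparsely covered embryos and 32.1% to 58.6% in densely covered ones. With 7 mutants but 4 controls sparsely covered, the pooled shares do not compare the groups at like coverage. A level is an average over the reads obtained from a blastocyst. Their number is unknown, and they need not sample all its cells or both alleles. Fewer methylated cells and fewer methylated sites per cell cannot be told apart.

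No cluster window passed the test of a difference between the groups. A window was tested where at least 3 embryos of each group had a value, which held for 10 of the 11, using limma on the percent scale with Benjamini-Hochberg adjustment over all 37645 windows tested. Of the 10 windows, 0 passed an adjusted p of 0.05 and 0 had an unadjusted p under 0.05. Over all tested windows 0.0372% passed (14 windows) and 5.75% had an unadjusted p under 0.05, so a set of 10 windows without a call is near the background. In 0 of the 10 windows were the groups free of overlap, against 1.35% of all tested windows. The mutant mean was below the control mean at 6 windows (55.9% of all tested), above it at 3 (43.5%) and equal to it at 1. The median difference was -1.11 percentage points, and that of all tested windows was -1.07 points. The smallest unadjusted p in the cluster was 0.269. With mutant replicate 12 left out the number of windows called over the whole table fell from 14 to 0.

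**Figure D1:**
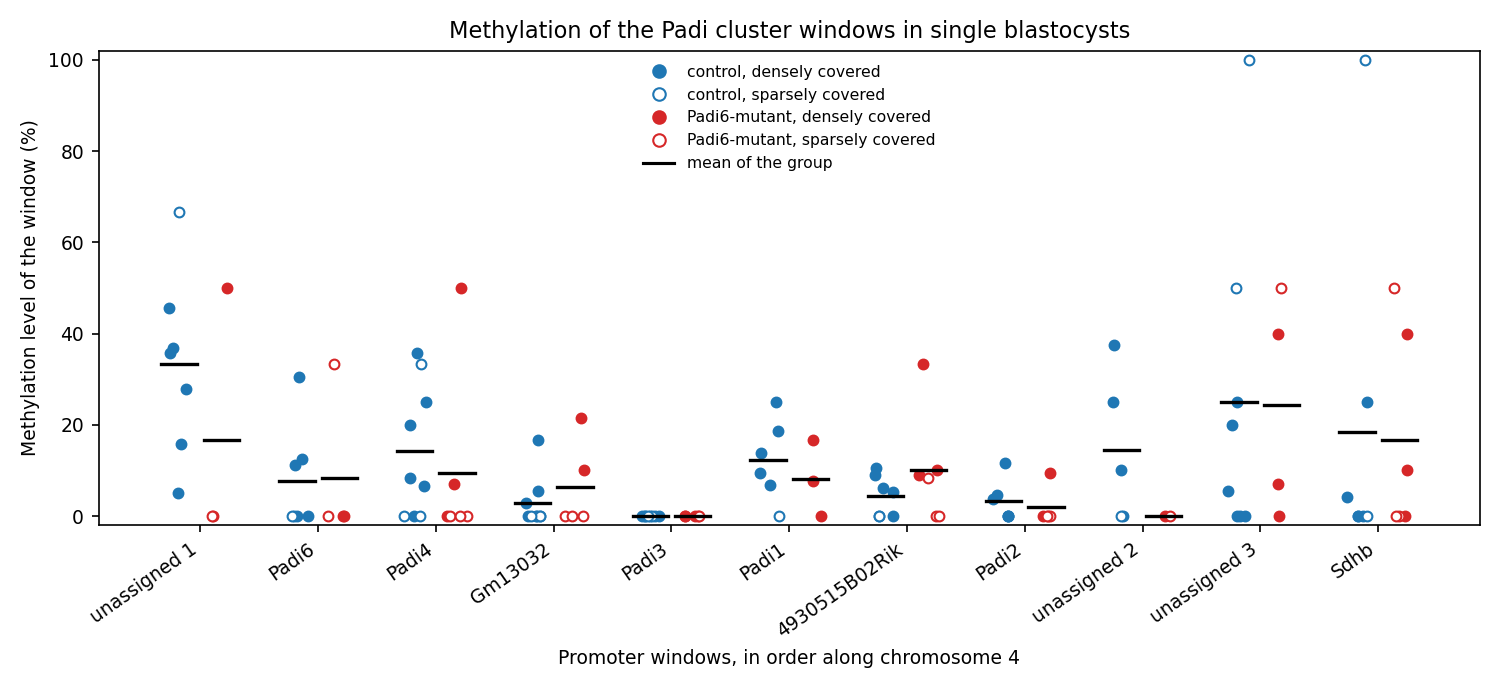
Methylation level (%) of each window (x axis, in order along chromosome 4) in single embryos; filled points are densely and open points sparsely covered embryos, and black bars are group means. Control and mutant points overlap at the 10 windows that were tested, and all 13 points of Padi3 lie at 0%.

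The promoter window of Padi6 itself stood at 0% in most embryos of either group. Its window lies on chromosome 4 from 140469455 to 140472954, with the start site at 140469954 on the minus strand. Across 7 control embryos the lowest value was 0%, the median 0% and the highest 30.4%, and 4 of the 7 stood at 0%. The values above 0% came from replicates 3 (11.1%), 5 (12.5%) and 4 (30.4%). Most controls thus stood at 0%, and a single embryo held the highest level. Among the 4 mutant embryos with a value, replicates 11, 12 and 17 stood at 0% and replicate 15 at 33.3%. Controls averaged 7.72% ± 11.5 (SD, n = 7) and mutants 8.33% ± 16.7 (SD, n = 4). The difference of 0.61 percentage points (SE 8.07, 95% interval -17.3 to 18.5) did not pass (limma adjusted p = 0.99). The sign is not fixed by these embryos: the difference was -7.72 points without mutant replicate 15, a sparsely covered embryo, and -0.67 points without any one of control replicates 1, 2, 6 and 10. In densely covered embryos alone, controls averaged 9.01% ± 11.99 (SD, n = 6) and both mutants with a value stood at 0%. Of all windows with at least 3 control values, 39.3% had a lower control mean than Padi6. For the mutant mean, among windows with at least 3 mutant values, this share was 47.8%.

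Padi4, the gene of the nuclear deiminase of granulocytes, had the highest control mean of the 5 Padi genes. Its window lies from 140501048 to 140504547. In 9 control embryos it ran from 0% over a median of 8.33% to 35.7%, with 3 embryos at 0% and the highest values in replicates 5, 7 and 1. In 6 mutant embryos the lowest and the median value were 0%, replicate 11 had 7.14% and replicate 14 had 50%. The groups overlapped, and mutant replicate 14 lay above every control embryo. The means were 14.3% ± 14.5 (SD, n = 9) and 9.52% ± 20.0 (SD, n = 6), which differ by -4.81 points (SE 8.55, 95% interval -23.1 to 13.5, limma adjusted p = 0.885). Single embryos left out moved this from -2.14 points (without control replicate 5) to -12.9 points (without mutant replicate 14). Within densely covered embryos the direction turned, where controls averaged 15.95% ± 13.3 (SD, n = 6) and mutants 19.05% ± 27.0 (SD, n = 3; limma adjusted p = 0.959).

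Padi3, a deiminase gene of hair follicle and skin, was read as unmethylated in every embryo. Its window, from 140537460 to 140540959, stood at 0% in 8 of 8 control and in 5 of 5 mutant embryos. All 9 densely covered embryos were among these 13. Such a run of 0% values was rare: of 8394 windows read in 13 or more embryos, 3 were at 0% in each of them (0.0357%). Over the tested windows, 0.582% were at 0% throughout. Of 17634 windows with a value in all 9 densely covered embryos, 39 were at 0% in all 9 (0.221%). Padi3 was therefore among the few windows at 0% in every embryo read. The limit of 13 embryos was taken from Padi3 itself, and windows read in more embryos had to be at 0% in more of them. Its 250 bases before the start hold 3 CGs, against a median of 6 over all promoters. The number of reads behind these values is unknown.

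Gm13032, a noncoding RNA gene, starts 345 bp from Padi3 and is read in the opposite direction. Its window, from 140535304 to 140538803, shares 1344 of its 3500 bases with that of Padi3 and holds the first part of the Padi3 gene. In 9 control embryos the lowest and the median value were 0% and the highest 16.7%, with 6 at 0%. In mutant embryos replicates 13, 16 and 19 stood at 0%, replicate 14 at 10% and replicate 12 at 21.4%. Where both windows were read in the same embryo, 6 of 11 embryos had 0% in both, and in the other embryos Gm13032 was above 0% and Padi3 at 0%. The mutant mean was 6.29% ± 9.51 (SD, n = 5) against 2.79% ± 5.56 (SD, n = 9) in controls, 3.499 points higher (SE 4.03, 95% interval -5.19 to 12.2, limma adjusted p = 0.843). It was -0.29 points without mutant replicate 12.

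Padi1, another deiminase gene of skin, was methylated at a low level in all but 1 of the 8 densely covered embryos in which it was read. Its window lies from 140572590 to 140576089. In 6 control embryos the lowest value was 0%, the median 11.7% and the highest 25%; the 0% came from the sparsely covered replicate 7. The 3 mutant embryos with a value, all densely covered, had 16.7% (replicate 11), 7.69% (replicate 12) and 0% (replicate 14). The 5 densely covered controls held methylation at this window without exception, between 6.82% and 25%, and the mutant values reached from below to inside that range. The means were 12.3% ± 8.88 (SD, n = 6) and 8.12% ± 8.34 (SD, n = 3), which differ by -4.19 points (SE 6.11, 95% interval -18.2 to 9.81, limma adjusted p = 0.865). It was -1.66 points without control replicate 5 and -6.66 points without control replicate 7. Mutant replicate 14, high at Padi4, was the lowest mutant embryo here.

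Padi2, the widely expressed member with the CG-rich promoter, was close to unmethylated. Its window lies from 140630655 to 140634154, with the start site at 140633655 on the plus strand. In 6 control embryos, all densely covered, it ran from 0% over a median of 1.90% to 11.5%, with 3 at 0%. Of 5 mutant embryos 4 stood at 0% and replicate 14 at 9.52%. Both groups thus stayed under 12%. The means were 3.33% ± 4.53 (SD, n = 6) and 1.90% ± 4.26 (SD, n = 5), which differ by -1.43 points (SE 3.06, limma adjusted p = 0.906). The difference was 0.22 points without control replicate 3 and -3.33 points without mutant replicate 14. The 95% interval of -8.21 to 5.36 points is the narrowest of the cluster apart from Padi3, where no value varied.

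**Figure D2:**
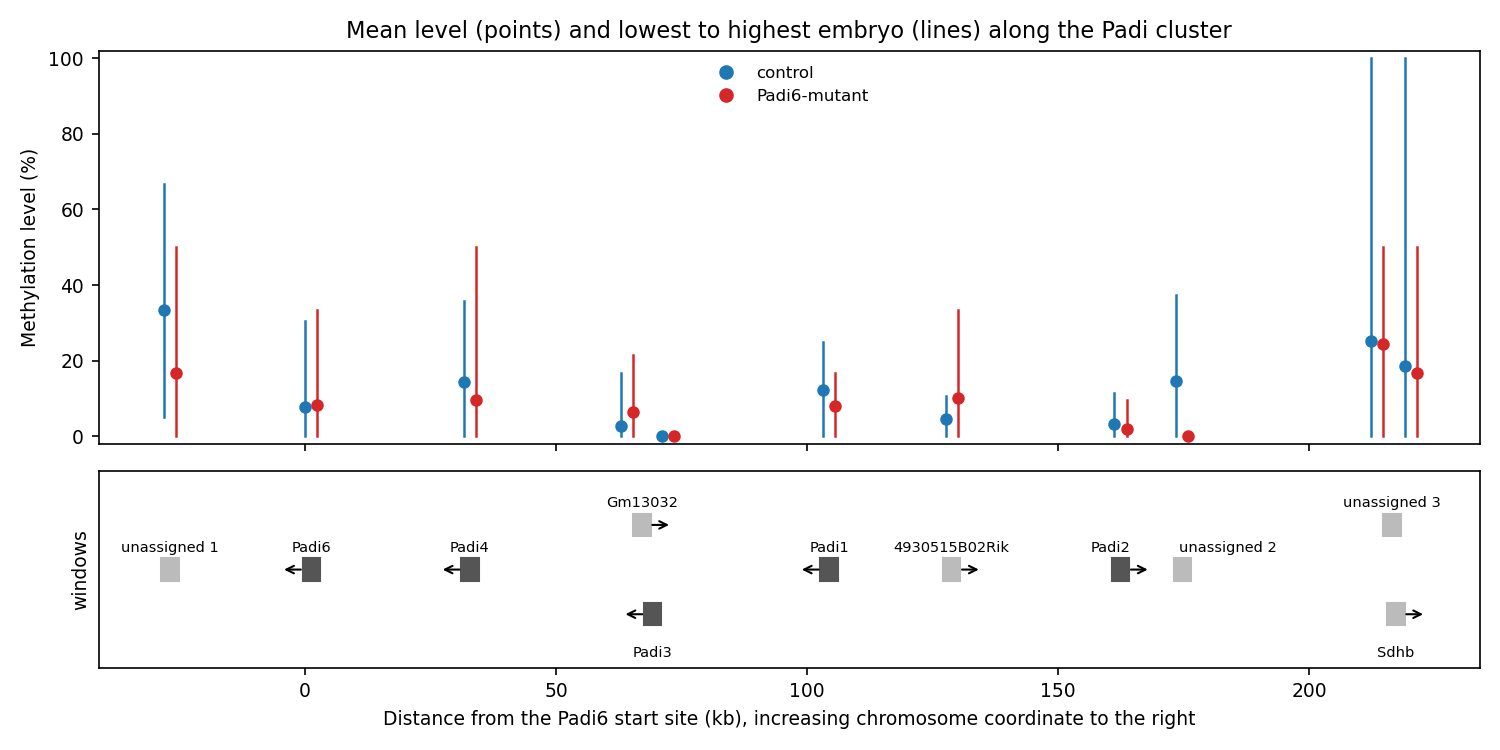
Upper panel: mean methylation level (%, points) with the lowest to highest embryo (lines) in each group, against the distance from the Padi6 start site in kb; points of overlapping windows are moved apart sideways. Lower panel: the 11 windows to scale (Padi genes dark), arrows giving the direction of transcription. Control means of the Padi genes lie between 0% and 14.3%, and the range is widest at the Sdhb end, from 0% to 100%.

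Between Padi1 and Padi2 lies the start of 4930515B02Rik, a noncoding RNA gene, with its window from 140597004 to 140600503. In 7 control embryos the window ran from 0% over a median of 5.26% to 10.5%. In 6 mutant embryos the lowest was 0%, the median 8.71% and the highest 33.3%, in replicate 14. The groups overlapped. The mutant mean of 10.1% ± 12.2 (SD, n = 6) exceeded the control mean of 4.45% ± 4.50 (SD, n = 7) by 5.68 points (SE 4.91, 95% interval -4.98 to 16.3, limma adjusted p = 0.834). Without mutant replicate 14 the difference was 1.04 points. In densely covered embryos the 3 mutants had 9.09%, 10% and 33.3%, and the 6 controls 0% to 10.5%, 12.3 points apart on average (limma adjusted p = 0.836).

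The remaining 4 windows, which belong to no Padi gene start, had control means of 14.5% to 33.4%, with SDs of 16.4 to 37.1 points. Unassigned 1, from 140441354 to 140444853 and thus 28101 bp below the Padi6 window, had the highest control mean of the cluster. In 7 control embryos it ran from 5% over a median of 35.7% to 66.7%, with 0 embryos at 0%. Mutant replicates 12 and 19 stood at 0% and replicate 14 at 50%. It was the one window in which every control embryo carried methylation, and 2 of the 3 mutant embryos lay below all of them. The means were 33.4% ± 20.1 (SD, n = 7) and 16.7% ± 28.9 (SD, n = 3), -16.7 points apart (SE 14.6, 95% interval -49.6 to 16.2, limma adjusted p = 0.834). With 3 mutant embryos the interval spans a loss of the whole control level as well as a gain.

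Unassigned 2, from 140642995 to 140646494 on the far side of the Padi2 start, had too few mutant values for the test. Control replicates 2 and 8 stood at 0%, replicate 5 at 10%, replicate 10 at 25% and replicate 3 at 37.5%. Mutant replicates 11 and 20 stood at 0%. The mutant values thus equalled the lowest control values.

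Unassigned 3 and Sdhb, from 140684714 to 140688213 and from 140685514 to 140689013, share 2700 of their 3500 bases and are not independent. At Sdhb 7 control embryos ran from 0% over a median of 0% to 100%, and 6 mutant embryos from 0% over a median of 5% to 50%. At unassigned 3 the 8 controls ran from 0% to 100% with a median of 12.8%, and mutant replicates 11, 12, 14 and 13 had 0%, 7.14%, 40% and 50%. Both 100% values came from control replicate 9, which had 3 cluster windows with a value. The differences were -1.79 points at Sdhb (SE 16.5, 95% interval -37.7 to 34.1, limma adjusted p = 0.984) and -0.78 points at unassigned 3 (SE 18.6, limma adjusted p = 0.997). Without control replicate 9 they turned to 11.8 and 9.92 points, and they also turned without mutant replicate 11.

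Among the 5 Padi genes the control means fell in the order Padi4 (14.3%), Padi1 (12.3%), Padi6 (7.72%), Padi2 (3.33%) and Padi3 (0%). Each step between neighbours in this order was smaller than the larger SD of the pair, a description of the spread between embryos and not a test of one gene against another. In mutant embryos the order was Padi4 (9.52%), Padi6 (8.33%), Padi1 (8.12%), Padi2 (1.90%) and Padi3 (0%), again with steps below the SD. Padi2 and Padi3 were the lowest in both groups. Of the 59 values at the 5 genes 36 were exactly 0% and 1 reached 50%. Padi3 alone gave 13 of the 36, and over all windows 44.9% of control and 54.5% of mutant values were exactly 0%.

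**Figure D3:**
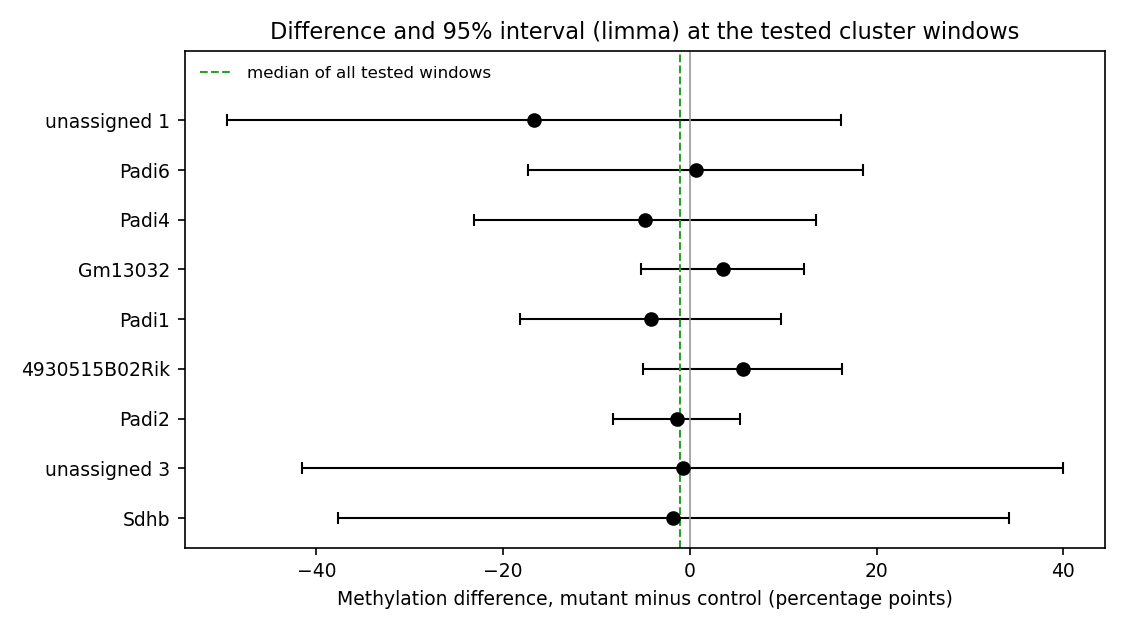
Difference in methylation level (mutant minus control, percentage points) with its 95% interval from limma at 9 cluster windows; Padi3, at 0% in all embryos, is not drawn. Each interval includes 0 and the median of all tested windows (dashed line).

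Taken per embryo over the whole cluster, the groups overlapped. To allow for missing windows, the mean of each window was subtracted from its values, the remainders were averaged per embryo and the mean over windows was added. No test was made on this score. Controls averaged 15.7% ± 15.8 (SD, n = 10) and mutants 8.04% ± 8.07 (SD, n = 10), -7.63 points apart. Against the control median of 12.04%, the mutant median was 5.11%, and 3 of 10 mutants were below the lowest control. Those were the sparsely covered replicates 17, 19 and 20, with values in 1, 3 and 3 windows, all at 0%. The score is not a level and can fall below 0, as in replicate 20 (-0.21). The densely covered mutants all lay above the lowest control (3.59), the lowest of them at 4.81. Control replicate 9, at 59.9% from 3 windows, carries much of this: without it the difference was -2.82 points. Without mutant replicate 14 it was -9.58 points. Within densely covered embryos the sign turned, with controls at 10.2% ± 3.59 (SD, n = 6) and mutants at 11.9% ± 11.7 (SD, n = 3). Within sparsely covered embryos the controls stood at 23.9% ± 24.0 (SD, n = 4) and the mutants at 6.40% ± 6.45 (SD, n = 7). Over the 5 Padi windows alone, chosen after the values were seen, the difference was -1.50 points.

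Of the densely covered mutant embryos, replicates 11 and 12 were close to each other in cluster mean and replicate 14 stood apart. By plain mean over the cluster replicates 11 and 12 had 3.76% and 5.54%, and replicate 14 had 25.9%, above all 6 densely covered controls (3.59% to 12.6%). Replicate 14 was the highest mutant embryo at 4 of its 9 cluster windows (unassigned 1, Padi4, 4930515B02Rik and Padi2). Over all windows of the series it also had the highest mean of the mutant embryos, 17.6%, against 11.1% in replicate 11 and 7.16% in replicate 12. The differences at Padi4, 4930515B02Rik and Padi2 and in the cluster mean without this embryo are given above.

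**Figure D4:**
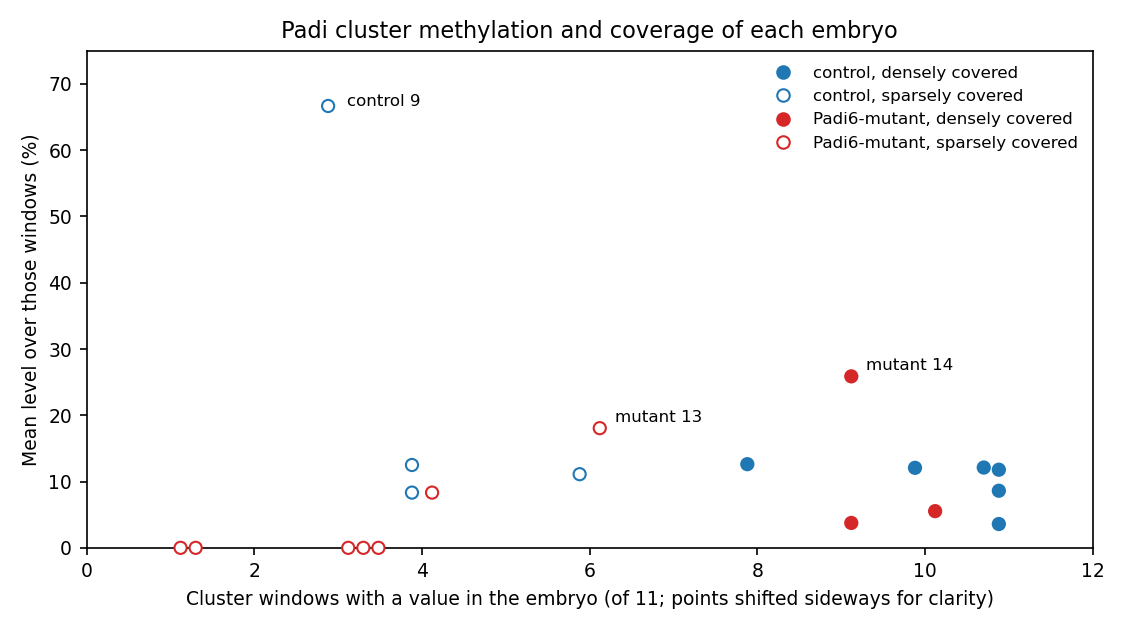
Plain mean methylation level over the cluster windows of an embryo (%) against the number of those windows with a value; filled points are densely and open points sparsely covered embryos. Control replicate 9 (66.7% over 3 windows) and mutant replicate 14 (25.9% over 9 windows) stand apart, and 5 sparsely covered mutant embryos lie at 0% over 1 or 3 windows.

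The cluster was set beside its surroundings. The median control mean of a window was 12.3% over the 11 cluster windows, 8.95% over 65 windows within 1 Mb on either side (1000000 bp) and 11.1% over 49198 windows of the genome with at least 3 control values. The median mutant mean was 8.93% over 10 cluster windows, 11.8% over 60 flanking windows and 8.52% over 38262 windows of the genome. These are the windows with at least 3 mutant values, so control and mutant medians rest on different sets of windows. The cluster values include windows of no Padi gene. At the 5 Padi gene starts alone, the median control mean was 7.72%, the median mutant mean 8.12% and the median difference -1.43 points. Over the tested windows the median difference was 0.42 points in the flanks, against -1.11 points in the cluster. Of 60 flanking windows tested, 0 passed the threshold and 27 had a mutant mean below that of controls. These are descriptions of neighbouring windows in the same embryos.

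The windows whose values followed Padi6 most closely were sought among 4006 windows outside the cluster with a value in at least 10 of the 11 embryos in which Padi6 was read. The measure was the mean absolute difference from Padi6 over the shared embryos, with a median of 10.7 points over all windows compared. The closest were on chromosome 5 from 72744395 to 72747894 (2.63 points), on chromosome 7 from 80051017 to 80054516 (3.09 points) and on chromosome 3 from 153430312 to 153433811 (3.38 points), each over 10 embryos. All 3 had 25% or more in control replicate 4, the control with the highest Padi6 value, and at most 8.33% in every other control embryo. In mutant replicate 15, the embryo with the highest Padi6 value, the window on chromosome 5 also had 33.3%. The windows on chromosomes 7 and 3 had no value there, so their differences leave that embryo out. As all 3 windows were chosen for closeness to Padi6, their likeness to it in single embryos is set by that choice and is not a separate result.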

How the data were processed

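Methylation was measured in 20 single blastocysts, 10 control and 10 Padi6-mutant, grouped by their titles. Reads were processed with Trim Galore 0.4.4 and Bismark 0.18.2 (build GRCm39, mm39), which the submitters' processing notes name. A single table was deposited by the authors with a score per promoter window and embryo, a methylation level in percent; how calls were combined, any coverage minimum and the choice of windows are not stated there. Of 54080 rows 46 were repeats and were dropped. Whole numbers above 100 (1594 values, 0 of them in the cluster) were read as percents without their decimal point and divided by 1000.

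Differences were fitted with limma 3.58.1 in R 4.3.3 (lmFit and eBayes, default settings) on the untransformed percent, over the whole table, for windows read in 3 or more embryos of each group, with Benjamini-Hochberg adjustment and a threshold of 0.05. A minimum of 7 would leave 1620 windows. The procedure was tested on the values of these data, shuffled among the embryos within each window. It also made some calls there when no window had been changed. Exact permutation tests over embryos used scipy 1.17.1. Densely covered means at least 30000 windows with a value, a limit set on coverage. The cluster, the lists and the limits were chosen with earlier results of these data known. The text names every cluster window and the 3 windows most like Padi6. Gene names rest on spacing, and no coordinates were moved between builds; the planned list of maternal complex and methylation genes was therefore not analysed here. Alternatives covered the minimum of embryos, values above 100, limma options, scale, centring, coverage and single embryos.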

Additional observations from a re-analysis of the deposited data

Results flagged for a closer look

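Of 19 groups of 4 to 10 values, 8 held an embryo whose gap to the next one exceeded the limit for its group size. The limit is set for about 1 in 20 groups of normally distributed values. Many of these groups consist largely of exact 0% values, where that rate does not hold, so 8 of 19 is not an excess over it. Where all other values are 0%, any value above 0% is flagged, as at Padi6 and Padi2 in mutant embryos. At Padi6, control replicate 4 (30.4%) and mutant replicate 15 (33.3%) lay far above the others. Mutant replicate 14 lay far above the other mutant embryos at Padi4 (50%), at 4930515B02Rik (33.3%) and at Padi2 (9.52%). Control replicate 2 did so at Gm13032 (16.7%). Control replicate 9 stood apart at Sdhb (100%) and in the mean over the cluster (59.9%). That mean includes its Sdhb value, so these flags are not separate.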

How the results depend on the processing

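The single-embryo refits, the coverage minimum of 2, 5 or 7 embryos and the other settings were planned; the mean over the 5 Padi windows was added after the data had been seen. No paired analysis was possible because no replicate number occurs in both groups. The 14 windows called over the whole table became 32 with at least 2 embryos per group, 0 with 5 or more (727 by unadjusted p under 0.05), 3 with 7 or more, 0 with variance trend and robust fitting (1705 unadjusted), 1 on the arcsine square root scale, 4 with each embryo shifted by its mean deviation, 4 in densely and 2 in sparsely covered embryos. Single embryos left out gave 0 to 18: 0 without mutant 12 (1647 unadjusted), 4 without control 3, 5 without control 4, 6 without mutant 14 and 9 without mutant 11.

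Cluster windows gave 269 estimates under alternatives, of which 0 passed (lowest limma adjusted p 0.759, lowest exact permutation p 0.3) and 20 had the opposite sign. Many of them could not change sign, so 20 of 269 does not measure how stable the signs are. The permutation tests, the limma options, the embryo minimums and the rule for values above 100 keep the main difference. So does leaving out an embryo without a value at the window, and Padi3 is always at 0. Padi6 turned to -0.0298 on the arcsine square root scale, which is not in percent. Unassigned 3 turned to 1.498 points with embryos shifted. In densely covered embryos Padi4 turned to 3.10, unassigned 3 to 7.29 and Sdhb to 10.8 points. With single embryos left out, Padi4 ran from -12.9 to -2.14, Padi1 from -6.66 to -1.66, 4930515B02Rik from 1.04 to 7.70, unassigned 1 from -21.4 to -11.1, Padi6 from -7.72 to 4.40, Padi2 from -3.33 to 0.22, Gm13032 from -0.29 to 5.23, unassigned 3 from -9.36 to 9.92 and Sdhb from -8.45 to 11.8 points. The cause was not tested. The mean over the cluster ran from -9.58 to -2.82 points, the smallest without control 9, and was 2.02 in densely and -12.8 in sparsely covered embryos when window means were recomputed within each class, against group means taken from the common window means in the report. Unknown read depth limits every level here.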
